A study of Mus musculus with 15 samples.

Results

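The 1544 sites described here are the places in the mouse genome that the study lists as bound by both RevErbalpha and RevErbbeta, and every site in the authors' summary table was kept, 1544 of 1544. At each site the 5'GRO-seq signal of RAW macrophages carrying biotin-tagged RevErbalpha was set against that of control RAW cells, with 1 library on each side. RAW cells are an established mouse macrophage line. The control library is labelled BTEV-Ctrl and the other comes from cells that express a biotinylated RevErba protein, named BLRP-RevErba in the table. Both were grown in RPMI medium with serum, and the sources used here do not say whether the tagged line is a single clone. RevErb binding had been measured in RAW cells by pulling down tagged RevErbalpha or RevErbbeta on streptavidin, with 3 runs for each protein. The series also holds GRO-seq of macrophages grown from bone marrow, from RevErbalpha flox/flox; RevErbbeta flox/flox mice without Tie2-Cre (WT) or with it (DKO), and these values are set beside the RAW cell values near the end. Tie2 drives Cre in endothelial and blood-forming cells, so the deletion is not limited to macrophages in the animal.

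RevErbalpha (gene Nr1d1) and RevErbbeta (gene Nr1d2) are nuclear receptors that lack the activation helix of other receptors and therefore act as repressors. They sit on the sequence AGGTCA preceded by A and T bases, or on pairs of it, and recruit the corepressor NCoR with the histone deacetylase HDAC3. They are best known as the arm of the circadian clock that represses Arntl, and in macrophages they lie mostly at enhancers, which are themselves transcribed into short enhancer RNAs. GRO-seq reads RNA still attached to the polymerase, and 5'GRO-seq keeps the capped 5' ends, so it shows where transcripts start, at enhancers as well as at genes. The comparison therefore asks how much initiation there is around a RevErb site in cells that express tagged RevErbalpha. The total amount of RevErbalpha in either line is not given in the sources used here.

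All 5'GRO-seq levels below are log2 of tags per 10000000 in a window of 500 bp around the site, with 1 added before the logarithm, and a difference is the tagged library minus the control library on that scale. Binding is the mean log2 signal of the 6 RevErb runs in 157 bp. The control library held 18708148 tags and the tagged library 7238710, a ratio of 2.58, so low values are less exact in the tagged library. Sites are named by their distance from the start of the gene the authors assigned, which is the nearest expressed gene and not a shown target, with minus for upstream. With 1 library a side there is no replicate error and no test. A site was counted as lower or higher when the difference reached 1, and the intervals given for single sites are exact 95% intervals for the 2 tag counts, which cover counting error only and treat tags as independent molecules.

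Of the 1544 sites, 309 were lower in the tagged cells (20.0% of sites) and 76 were higher (4.92%). At a threshold of 2 there were 104 lower (6.74%) and 14 higher (0.907%). The smallest difference counted as lower was -1.0, as at Tm6sf1 (6.02 in control and 5.02 in tagged cells). The nearest value outside it was -0.99, as at Slc31a2 (3.60 and 2.61). The median level of the 309 lower sites was 5.19 in control and 3.27 in tagged cells. For the 76 higher sites the medians were 3.13 and 4.78, so these began at a low level. In 254 of the 309 lower sites (82.2%) and 59 of the 76 higher sites (77.6%) the counting interval of the difference left out 0. The sites were picked by the same counts that set their intervals, and no interval is adjusted for picking among 1544 sites. These shares therefore describe depth and do not test the calls. The tagged library held no tag at 57 of the lower sites, and 2 lower and 7 higher sites had at most 3 tags in both libraries.

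**Figure D1:**
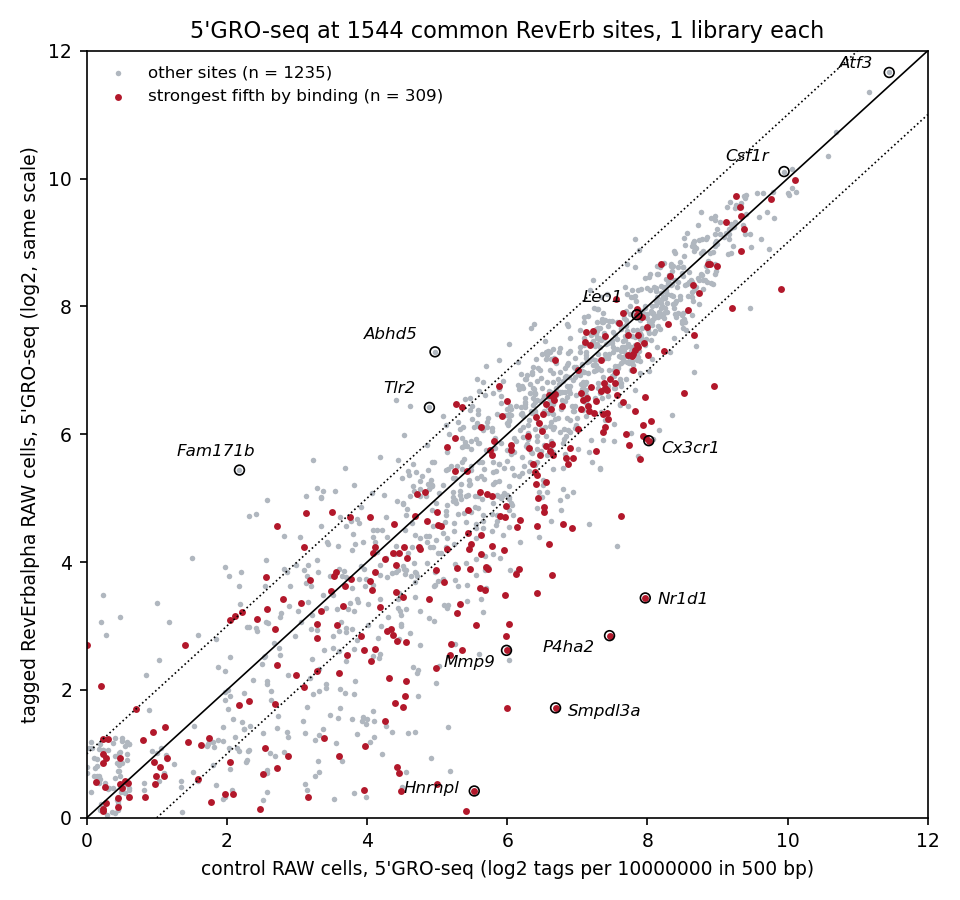
5'GRO-seq level of the 1544 sites in control RAW cells (x axis) and in tagged RevErbalpha RAW cells (y axis), both log2 tags per 10000000 in 500 bp, 1 library each. The solid line is equality and the dotted lines a difference of 1; the 309 most strongly bound sites are red, and 116 of them lie below the lower dotted line against 14 above the upper one.

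A site that covers a gene's start shows the promoter itself, and 97 sites lay within 250 bp of the start of their assigned gene, so that the window held it. Their median level was 8.31 in control and 8.30 in tagged cells, and the interquartile range of the differences ran from -0.27 to 0.21. Only 3 of these 97 sites were lower (3.09%) and 0 were higher, against 306 lower (21.1%) and 76 higher among the 1447 sites farther away. The 3 were at Nr1d1, Arntl and Irf2bpl. Differences of over 0.5 in either direction were found at 21 of the 97, and the spread was wider away from starts. These promoter windows also had the highest signal, and at high signal fewer sites of any kind were lower, as given further on.

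Promoter sequence is shown here because some of the most strongly bound start sites carry the same RevErb motif and yet had unequal 5'GRO-seq values. Promoters from RefSeq (GRCm38.p6), from 250 bases before to 50 after the start, were matched by symbol for 76 of the 97 genes, giving 89 promoters. The motif TAGGTCA was searched on both strands, allowing no mismatch, and it was found in 7 of the 89 promoters (7.87%) and in 2.61% of all 32851 promoters. It contains the shorter AGGTCA, which was in 22.5% of the 89 and 16.3% of all. In the following stretches, 5' to 3', capitals mark TAGGTCA, which is on the strand of the gene in all but Cst3.
Arntl: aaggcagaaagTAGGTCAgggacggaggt
Leo1: ctggagaaaacTAGGTCAcaaaagtaaag
Ankrd40: cgaaaagtatcTAGGTCAatgttgtcaca
Cst3: ttcttgccttgTAGGTCAgatacctctta
In GRCm38.p6 these lie at chr7:113207530-113207558, chr9:75441450-75441478, chr11:94327970-94327998 and chr2:148875609-148875637, all on the plus strand. The match begins 30 bases after the start of Arntl, and 63, 20 and 114 bases before the starts of Leo1, Ankrd40 and Cst3. The longer GTAGGTCA, found in 0.621% of all promoters, was present in Arntl and Cst3.

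Arntl encodes BMAL1, the activator of the core clock, and its start site (binding 8.57) had 5.29 in control and 3.91 in tagged cells, a difference of -1.38 with a counting interval of -2.58 to -0.50. Leo1, which encodes a subunit of the PAF1 elongation complex, was bound almost as strongly (8.26) and had 7.85 and 7.87. Ankrd40 (binding 7.14) had 6.66 and 6.58. Cst3, which encodes the protease inhibitor cystatin C, had 9.33 and 9.42 at a site with binding 6.41. Of these 4 starts with the same motif, Arntl was lower by over 1 and the other 3 differed by less than 0.1. Over all matched starts the median difference was -0.08 for the 7 with TAGGTCA and 0.03 for the 69 without.

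The start of Nr1d1, the gene of RevErbalpha itself, held no TAGGTCA in this window. It held a looser pair, shown because this site had the largest fall among starts. In the line below, capitals mark both copies in a direct repeat of GGGTCA spaced by 2 bases, each copy with 1 mismatch allowed.
Nr1d1: ggaaaagtGTGTCActGGGGCAcgaggcgc
The stretch lies at chr11:98775361-98775390 on the minus strand of GRCm38.p6, which is the strand of the gene. The match begins 5 bases before the start and runs across it. Such a repeat was in 1.88% of all promoters and, among the 76 genes, in Nr1d1 alone. A match of letters is a description and not a shown binding site.

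All 3 sites assigned to Nr1d1 were lower. The start site, at mm9 chr11:98636608-98636764 and 130 bp upstream, had 7.97 in control and 3.44 in tagged cells, from about 467 and 7 tags, and its counting interval ran from -6.01 to -3.64. The site 1423 bp downstream had 5.0 in control and 0.53 in tagged cells, where no tag was counted. Its fall was 7.35-fold if 3 tags are allowed there and the control count is taken as exact. The upper end of its counting interval was -2.53. The site 8318 bp upstream, an intergenic enhancer, had 7.16 and 5.73. The endogenous Nr1d1 promoter was thus among the sites with the largest falls, in cells that express the same protein from a tagged copy.

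The share of lower sites was larger where binding was stronger. Sites were ranked by binding and divided into 5 groups of 308 or 309. From weakest to strongest, 39, 38, 53, 63 and 116 sites were lower, or 12.7%, 12.3%, 17.2%, 20.4% and 37.5% of each group. The number of higher sites hardly moved on the deposited scale, at 16, 16, 14, 16 and 14. With 10 in place of 1 added before the logarithm it did fall, at 10, 10, 9, 2 and 3. The lower sites on that scale numbered 18, 21, 31, 31 and 80. Most of the increase lay in the strongest group, and within it most toward the top: of the 50 most strongly bound sites 32 were lower (64.0%) and 2 higher, with a median of 5.50 in control and 3.48 in tagged cells. Across all 1544 sites Spearman's rho between binding and the difference was -0.24. These sites share the same 2 libraries, so no p is given.

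The 6 binding runs all gave a negative rho. It was -0.15, -0.15 and -0.12 for the RevErbalpha runs and -0.22, -0.26 and -0.19 for the RevErbbeta runs. For the BirA column, read as background, rho was -0.02, and for distance to the gene start it was 0.02. Each RevErbbeta run thus had a rho farther from 0 than each RevErbalpha run, although it was RevErbalpha that was expressed, and the difference was not tested. Depth varied within both sets: the RevErbalpha runs held 5276592, 682651 and 598490 tags and the RevErbbeta runs 3751878, 4888686 and 780281, in the order of the values above.

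The 10 most strongly bound sites show this as single values. At Slc37a2, a sugar-phosphate transporter of the endoplasmic reticulum and the site with the highest binding of all (9.51), the levels were 5.90 and 4.72. At Arhgap25, a Rac-directed GTPase activator of blood cells (binding 9.16), they were 5.35 and 2.63. At Hmga1, an architectural chromatin protein (binding 8.62), they were 8.52 and 6.64, from about 684 and 71 tags. These 3 sites were lower from moderate or high signal in control cells, and so were those at Pqlc1 (5.32 and 3.34), Dnttip2 (6.64 and 3.8), Mmp9 and Hnrnpl. Senp6 was lower from a low control level of 3.96, with no tag in the tagged library against about 27. The upper end of its counting interval was -1.40. The remaining 2 of the 10 had little signal in either library. Sap25 had 2.43 and 3.11, from about 8 and 5 tags. Zfp236 had no tag in control and about 4 in tagged cells, and it counted as higher.

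Among the enhancer-like sites, which have high H3K4me1 and low H3K4me3, the authors separate genic ones, inside a gene, from intergenic ones. The genic sites were more often lower, 177 of 687 (25.8%) against 95 of 556 (17.1%) intergenic sites and 37 of 301 (12.3%) with H3K4me3 above H3K4me1. From the weakest to the strongest binding group the share of lower sites was 19.7%, 16.9%, 24.8%, 23% and 44.0% for genic sites. For intergenic sites it was 9.65%, 11.1%, 8.47%, 22.4% and 33.1%. The strongest group was highest in both classes, and in each of the 5 groups the genic share stood above the intergenic share, though by little in the second strongest. Genic sites also had less signal, with medians of 5.58 in control and 5.05 in tagged cells against 6.31 and 6.08 for intergenic sites, and the part of signal level in this difference was not tested.

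**Figure D2:**
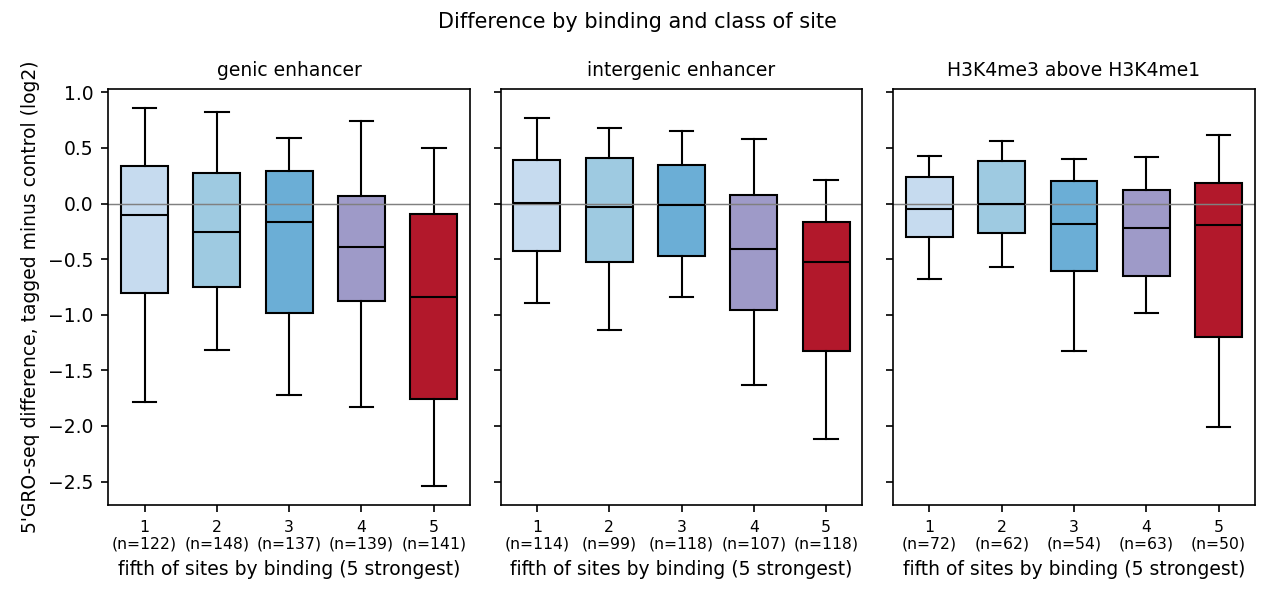
5'GRO-seq difference (tagged minus control, log2) by group of binding, from weakest (1) to strongest (5), for genic enhancers, intergenic enhancers and sites with H3K4me3 above H3K4me1, with the number of sites under each box. Boxes span the interquartile range, the line is the median and whiskers run from the 10th to the 90th percentile; the median of the strongest group is -0.84 for genic and -0.53 for intergenic enhancers, and the whole box of each lies below 0.

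The class with H3K4me3 above H3K4me1 was not uniform. Of its 301 sites, 97 lay at a start, 108 between 250 bp and 10 kb from one, and 96 at 10 kb or more. The last group had median levels of only 2.00 in control and 1.16 in tagged cells, far below the 8.31 and 8.30 at starts. A small median difference for this class therefore joined active promoters, where both libraries were high, with distant sites where both were near the limit of counting. In between, at 250 bp to 10 kb, the medians were 7.35 and 6.75, and 16 of 108 sites were lower (14.8%).

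With distance from the start, the share of lower sites went from 10 of 152 (6.58%) under 1 kb to 85 of 355 (23.9%) at 1 to 10 kb. It was 85 of 380 (22.4%) at 10 to 30 kb, 97 of 453 (21.4%) at 30 to 100 kb and 32 of 204 (15.7%) beyond 100 kb. In the strongest binding group, 34 of 68 sites at 1 to 10 kb were lower (50%), with medians of 5.59 in control and 4.14 in tagged cells. At 10 to 30 kb it was 33 of 80, at 30 to 100 kb 36 of 111, and beyond 100 kb 10 of 31. Among strongly bound sites the share of lower values was thus largest at 1 to 10 kb and smallest under 1 kb, with 3 of 19. Genic sites downstream of the start, within the assigned gene or beyond it, were lower in 27.2% of 511 cases and genic upstream sites in 21.6% of 176.

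**Figure D3:**
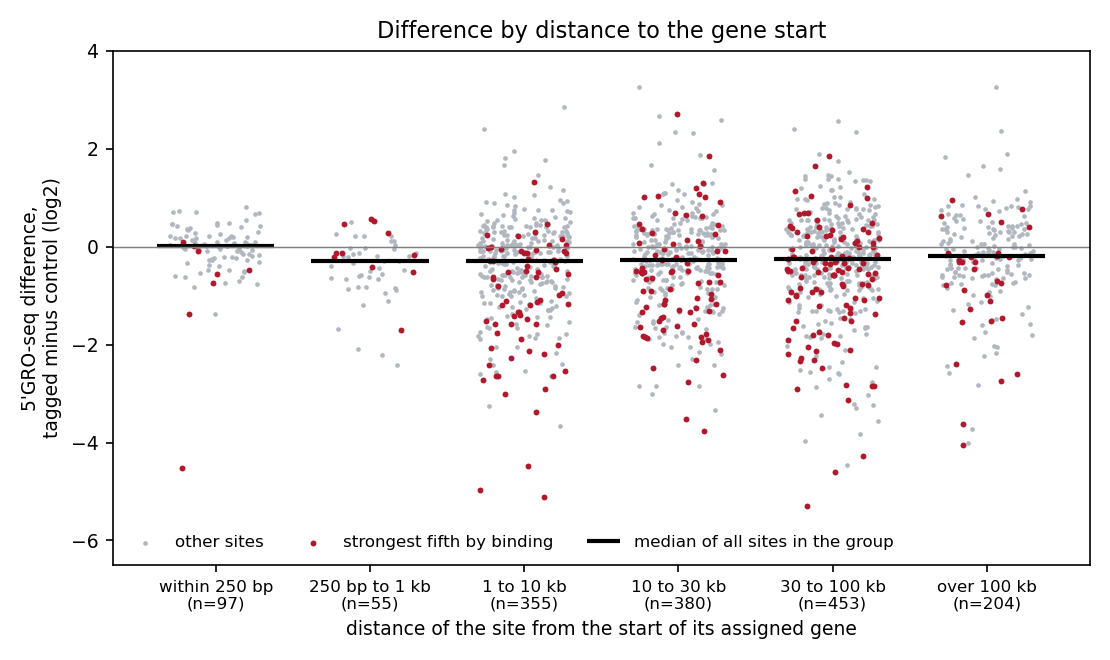
5'GRO-seq difference (tagged minus control, log2) of each site by its distance from the start of the assigned gene, with sites in the strongest binding group in red, the others in grey, and a bar at the median of all sites in each group. Of the 97 sites within 250 bp of the start, 3 are lower by at least 1, the lowest of which is Nr1d1 at -4.53, while the groups from 1 kb outward spread to both sides and farther below 0 than above.

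Signal level bears on all of these shares. Sites were ranked by their mean level over both libraries and divided into 5 groups, and from the lowest to the highest the share of lower sites was 33.4%, 34.0%, 19.7%, 10.4% and 2.59%. Binding still ordered sites of like level in all but the lowest group. Going up by level, 29 of 81, 42 of 83, 24 of 57, 17 of 54 and 4 of 34 of the strongly bound sites were lower, against 19 of 46, 7 of 51, 8 of 60, 5 of 62 and 0 of 89 of the most weakly bound. In the lowest group, where a few tags decide the value, the weakly bound sites had the larger share. Strongly bound sites had somewhat less signal in control cells, with a median of 5.61 against 6.52 in the weakest group.

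The largest falls were ranked after adding 10 to the linear values, which keeps sites with few tags from leading; on that scale 181 sites were lower (11.7%) and 34 higher (2.20%). Of the 15 at the top, 12 belonged to the strongest binding group. After the Nr1d1 start came P4ha2, the catalytic subunit of a collagen prolyl hydroxylase, with 7.46 in control and 2.85 in tagged cells at a genic site (mm9 chr11:53969465-53969621). Smpdl3a, a phosphodiesterase related to acid sphingomyelinase, had 6.69 and 1.72, the latter from about 1 tag, and its interval ran from -11.52 to -3.71. Both sites had well over 100 tags in control cells and almost none in tagged cells.

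Others of the 15 were at genes of various functions. Igf2bp2, an RNA-binding protein that stabilises messages, had 6.0 and 1.72 at its lowest site. Hnrnpl, a splicing regulator, had no tag in tagged cells against about 84, and its interval ended at -3.11. Pak1ip1, an inhibitor of the kinase PAK1, had no tag in tagged cells against about 77, and its interval ended at -2.98. Prex1, an exchange factor for Rac, had 5.98 and 2.84. Edn1, the vasoconstrictor endothelin, is the assigned gene of an intergenic site with 6.43 and 3.52. Mmp9, a gelatinase that macrophages secrete, had 5.99 and 2.62 at a site 5288 bp upstream. In each of these the counting interval lay wholly below -2, though the sites were picked as the largest falls in the same counts.

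A few of the 15 lay outside the strongest binding group, so a place in that group was not a condition for a large fall. The Cacna1a site (binding 5.70, the middle group) had 7.56 and 4.26, from about 351 and 13 tags; this gene encodes a neuronal calcium channel. A site 57174 bp downstream of the start of Lpin1, a phosphatidate phosphatase, had binding of 4.53 and levels of 7.16 and 4.60. One of the Atp6v1b2 sites (binding 3.75) had 6.03 and 2.47. The other sites of this gene stood nearby, had binding of 7.11 and 7.32, and were lower too.

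Higher sites were fewer, and all of the 12 with the largest rises lay in the 3 weaker binding groups. The site with the largest rise with 10 added was at Abhd5, the activator of adipose triglyceride lipase, 14010 bp upstream, with 4.97 in control and 7.29 in tagged cells from about 56 and 112 tags (interval 1.89 to 2.86). Srd5a2, a steroid reductase, had 4.42 and 6.54 at a genic site, and Cln8, a membrane protein of the endoplasmic reticulum, 4.61 and 6.45. Fam171b had the largest difference among them on the deposited scale, 3.26, from 2.18 to 5.44 and about 6 and 30 tags. Mfsd2a, a lipid transporter, had 6.38 and 7.73, which was the highest control level of the 12. At all 12 the counting interval lay above 1, though they were picked as the largest rises in the same counts.

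Several genes had more than 1 site, and sites of 1 gene share its locus. Among 68 genes with 3 or more sites, every site was lower at 6 (Nr1d1, Arntl, Igf2bp2, Atp6v1b2, Tbxas1 and Dot1l) and every site was higher at 0. Of all 1544 sites 62.6% lay below 0 and 36.8% above. All sites lay below 0 at 22 of these genes and all above 0 at 3. Sites of a gene could also part: 4 of the 68 had both a lower and a higher site.

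Tbxas1, which encodes thromboxane synthase, an enzyme that macrophages and platelets use to make thromboxane, gave the most even values. Its 3 genic sites, between 19681 and 31099 bp downstream of the start, had 8.35, 8.08 and 6.80 in control and 6.30, 5.92 and 4.60 in tagged cells. Their differences, -2.05, -2.16 and -2.20, were nearly equal although the levels differed by over 1.5. The counts behind them were large, about 608, 504 and 206 tags in control against 56, 43 and 16.

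At Arntl the start site and the sites 21279 and 62917 bp upstream had 5.29, 6.94 and 4.0 in control and 3.91, 5.10 and 1.54 in tagged cells. The most distant of these had about 1 tag in tagged cells and an interval of -8.79 to -0.84. At Atp6v1b2, a subunit of the vacuolar proton pump, the 3 sites stood within 7 kb of each other, 75958 to 82684 bp upstream, with 5.97, 3.16 and 6.03 in control and 3.49, 0.33 and 2.47 in tagged cells. At Dot1l, the histone H3K79 methyltransferase, the sites had 5.95, 3.56 and 4.88 against 4.19, 1.17 and 3.13. At Igf2bp2 they had 3.82, 6.0 and 2.72 against 0.39, 1.72 and 1.41, and the counting interval of the last, from about 10 and 1 tags, held 0. With 10 added before the logarithm 3 genes had every site lower.

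Genes with 4 or more sites, 15 in all, had 0 with every site lower and 3 with every site below 0. Enpp6, a choline phosphodiesterase, had 4 sites with differences of -1.80, -0.70, -1.48 and -0.65, and Gm14005, a non-coding gene, had 5 sites from -2.82 to -0.17, of which 2 were lower. Spred1, an inhibitor of Ras signalling, had 9 sites upstream; the 8 with tags had control levels of 6.18 to 8.4 and differences between -0.92 and -0.12, so all lay below 0 and none reached -1, and the ninth had no tag in either library. Cyth4, an exchange factor for ARF proteins in blood cells, had 4 sites with levels of 7.84 to 9.46 over both libraries and differences of -0.32 to 0.04. Emp1, a membrane protein of epithelia, had 4 sites that were all above 0, by 0.22 to 1.21. Lpp, a focal adhesion protein, had 6 sites from -0.84 to 1.46, and Elmo1, a partner of the Rac activator DOCK, had 1 lower and 1 higher site among 4.

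**Figure D4:**
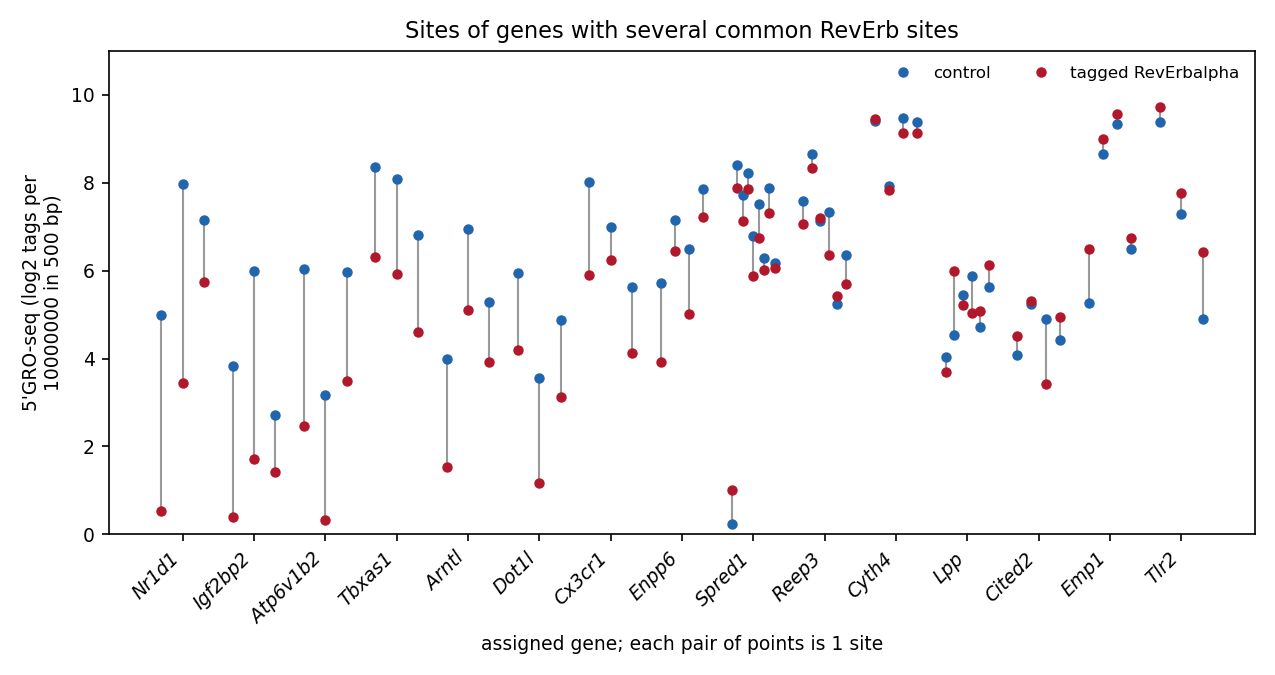
5'GRO-seq levels (log2 tags per 10000000 in 500 bp) in control (blue) and tagged RevErbalpha (red) RAW cells at each site of 15 genes, in genome order within a gene, 1 library each. The first 6 genes are those whose every site was lower by at least 1; the others were picked to show genes with many sites or with sites of mixed direction, and at Emp1 and Tlr2 every red point lies above its blue point.

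Sites were then read by the function of their assigned genes, in lists of clock genes, macrophage factors and others. Together the lists covered 122 sites, of which 25 were lower (20.5%) and 7 higher (5.74%). Both shares were close to those of all sites, 20.0% lower and 4.92% higher. Single lists held at most 24 sites, so a few sites decide their shares. Among clock genes 8 of 24 had a site, 13 sites in all. Of these 6 were lower (46.2%, against 20.0% of all sites): the 3 of Nr1d1 and the 3 of Arntl. Npas2, the partner of BMAL1 outside the core pair, had 6.69 and 6.62 at its genic site, and about 1 and 0 tags near its start in spite of binding of 7.82. Clock had 5.91 and 5.86 and Per1, a repressor arm of the clock, 5.09 and 4.46. The Cry1 site counted as higher, with about 2 tags in tagged cells and 0 in control, which is too few to read. The median over the 13 sites was -0.63. It was -1.38 with 3 tags allowed wherever a library had 0, and sites with at most 3 tags in both libraries left out.

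Of the chemokine, cytokine and receptor genes, 10 of 35 had a site. Of their 17 sites 5 were lower (29.4%, against 20.0% of all sites) and 0 higher (against 4.92%). With 10 added 3 were lower (17.6%, against 11.7% of all sites). Cx3cr1, the receptor of fractalkine, had 8.02, 7.00 and 5.63 in control and 5.90, 6.25 and 4.12 in tagged cells at its 3 sites, 2 of which were lower. Tgfbr1, a receptor of TGF-beta, had 6.89 and 5.79 at a site 37722 bp upstream, 6.02 and 4.98 at another 6056 bp upstream, and 7.85 and 7.63 at its other site. Ccl3, a chemokine that attracts monocytes, was lower 8980 bp downstream (7.20 and 5.91) and had 5.79 and 5.67 beside its start. The sites of Tnf, Csf1r, Il6ra and Il10ra differed by less than 0.4 in either direction, among them the Tnf start at 10.06 and 10.15.

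Of the 14 sites of pattern recognition genes, 8 lay above 0 and 6 below (42.9%, against 62.6% of all sites), with a median of 0.32. By the threshold 1 was lower and 1 higher (7.14% each, against 20.0% and 4.92% of all sites). The 3 sites of Tlr2, the receptor for bacterial lipoproteins, had 9.38, 7.28 and 4.89 in control and 9.73, 7.76 and 6.42 in tagged cells, so all were above 0 and the most distant, 43826 bp upstream, was higher. Cd14, the co-receptor for lipopolysaccharide, had 8.38 and 8.86 and Clec4e, a receptor for mycobacterial glycolipid, 6.66 and 7.33. Both sites of Nod2, the sensor of muramyl dipeptide, were above 0 (6.17 and 6.71, then 5.69 and 6.61). Below 0 stood Nlrp3, the inflammasome sensor, with 7.37 and 6.03, and both sites of the adaptor gene Myd88 (7.08 and 6.38, then 8.91 and 8.37). So did Irak3, an inhibitor of the same pathway (6.67 and 6.11), and the adaptor gene Ticam1 (5.80 and 5.41). Tlr4, the receptor for lipopolysaccharide, had 8.67 and 8.95 at its start and 3.52 and 2.66 at a genic site.

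Of the macrophage transcription factors, 14 of 33 had a site. Of the 24 sites 4 were lower (16.7%, against 20.0% of all sites) and 1 higher (4.17%, against 4.92%). The lower ones were at Hif1a, the hypoxia factor (7.39 and 6.12), at 2 of the 3 sites of Klf6 (7.53 and 5.89, 4.10 and 1.51) and at Fosl2, an AP-1 subunit (4.19 and 2.56). The higher one was 44518 bp from Cebpa, a driver of the myeloid lineage, with 7.23 and 8.42 from about 278 and 247 tags. Sites of Fos, Jun and Irf8 lay between -0.96 and -0.09. These 3 factors were thus below 0 by less than the threshold.

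Among coregulators 5 of 17 sites were lower (29.4%, against 20.0% of all sites) and 0 higher (against 4.92%). With 10 added 2 were lower (11.8%, against 11.7% of all sites). Irf2bpl, a ubiquitin ligase related to the repressor IRF2BP2, was lower at its start (7.53 and 6.16), a weakly bound site (binding 4.46). Irf2bp2 had 2 of 4 sites lower and Cited2, which competes for the coactivator CBP, 1 of 4. No site was assigned to Ncor1 or Hdac3.

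For lipid genes 1 of 14 sites was lower and 1 higher (7.14% each, against 20.0% and 4.92% of all sites). Plin2, the coat protein of lipid droplets, had 6.17 and 3.90 at a site 1959 bp upstream, and Abca1, the cholesterol exporter, had 4.07 and 5.08 at 1 of 3 sites, which did not reach 1 with 10 added. In the list of proteases and inhibitors, Mmp9 was lower as given above. Mmp14 also counted as lower and a Plaur site as higher, each from about 6 tags or fewer. The phagocytosis and surface list had 0 lower and 2 higher of 8 sites, at Axl (5.47 and 6.57), a receptor for dying cells, and Cd33 (4.44 and 5.60), a sialic acid receptor, and with 10 added neither reached 1. Of 10 macrophage markers Csf1r, Cd14 and Fcgr1 had a site, all with levels over 7 in both libraries. For lymphocytes, granulocytes, stroma or epithelium 0 of 30 markers had a site. Sites were assigned to the nearest expressed gene, so a marker silent in these cells could not receive one. These counts therefore cannot show cell identity.

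The same sites were measured by GRO-seq in bone marrow derived macrophages, with and without both RevErbs, in libraries that share no sample with the RAW cell pair. There, 52 sites were higher by 1 or more in DKO (3.37% of sites) and 34 lower (2.20%). Among the 309 sites that were lower with tagged RevErbalpha, 18 were higher in DKO (5.83%) and 11 were lower (3.56%). Of the 1159 sites that were neither lower nor higher in RAW cells, 31 were higher in DKO (2.67%) and 21 were lower (1.81%), so both directions were more frequent at the 309. Among the 116 sites both strongly bound and lower, 10 were higher in DKO (8.62%) and 75 were above 0 (64.7%). For the 193 strongly bound sites that were not lower, these figures were 8 (4.15%) and 113 (58.5%).

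The differences in the 2 systems hardly followed each other over all sites, with Spearman's rho of -0.005, and weakly in the strongest binding group, at -0.16 over 309 sites. The cells, the assay and the direction of the manipulation all differ, and each genotype is 1 sample. The median DKO minus WT difference was 0.05 at the 309 lower sites and 0.21 at the 116 that were also strongly bound.

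Opposite directions in the 2 systems were found at 18 of the 309 sites, beside the 11 that were lower in both. The 18 sites that were lower with tagged RevErbalpha and higher without RevErbs were at Nr1d1 (2 sites), Cx3cr1 (2 sites), Arntl, Plin2, Dnttip2, Ccnjl, Elmo2, Ptprs, Zfp36l1, Atl2, Capza2, Lpin1, Pdcd1lg2, Parva, Clspn and Tgm2. With 10 added 9 of the 18 were still lower by 1 in RAW cells: both Nr1d1 and both Cx3cr1 sites and those of Arntl, Plin2, Dnttip2, Ccnjl and Clspn. At the Dnttip2 site (mm9 chr3:122046632-122046788) GRO-seq was 2.58 in WT and 4.61 in DKO, the largest rise of the 18, beside 6.64 and 3.8 in the RAW pair. At the Cx3cr1 site 30691 bp downstream it was 4.20 in WT and 5.58 in DKO, and at the Nr1d1 start 4.62 and 5.80. Plin2 had 2.50 and 3.69, and the Arntl site 21279 bp upstream 1.07 and 2.21. The assigned gene itself was higher in DKO by over 1 for Nr1d1 (1.80), Cx3cr1 (1.65) and Arntl (1.07), but not for Dnttip2 (-0.10) or Ccnjl (-0.73).

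Other sites with large falls in RAW cells did not differ by 1 in the knockout. The P4ha2 site given above had a DKO minus WT difference of 0.11, Smpdl3a 0.29, Mmp9 0.33 and the 3 Tbxas1 sites -0.07 to 0.20. The Mmp9 gene itself was higher in DKO by 1.20, from unequal runs of 7.71 and 6.07 in WT and 7.82 and 8.36 in DKO. The genes P4ha2 (0.34), Smpdl3a (-0.26) and Tbxas1 (0.16) differed less. At Hmga1 the sign was the same in both systems, since the DKO value was lower by 1.02 there (-1.02).

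**Figure D5:**
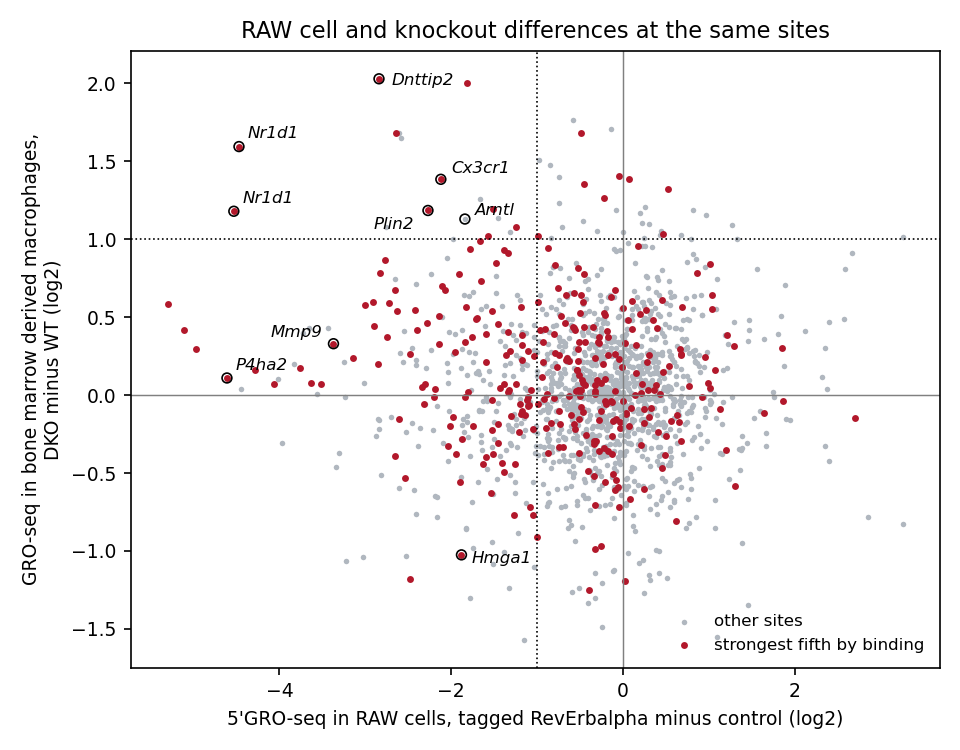
Each of the 1544 sites by its 5'GRO-seq difference in RAW cells (x axis, tagged RevErbalpha minus control, log2) and its GRO-seq difference in bone marrow derived macrophages (y axis, DKO minus WT, log2), with the strongest binding group in red and dotted lines at -1 and 1. The upper left corner holds the 18 sites that were lower on the x axis and higher on the y axis, among them Nr1d1, Cx3cr1, Plin2, Dnttip2 and Arntl, while most of the 309 lower sites, such as P4ha2 and Mmp9, lie near 0 on the y axis.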

How the data were processed

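The authors deposited 1 summary table of 1544 common RevErb sites, with values in log2 of tags per 10000000 plus 1, in 500 bp for 5'GRO-seq and 157 bp for ChIP-seq, per the file headers. The genome build is mm9 and the tools include HOMER and Bowtie 0.12.7, per the submitters' processing notes. Treated libraries appear in the headers too, and whether a run used here was treated is not stated. Differences were recomputed from the columns with Python 3.11.15, pandas 2.3.3 and SciPy 1.17.1, and equalled the authors' difference column. Each 5'GRO-seq library counted as 1 sample and each RevErb's 3 runs as 1. Tags were recovered approximately from values and library totals, since up to 1 tag appears to have been added at random before scaling. Intervals are exact Clopper-Pearson 95% intervals. Gene symbols at 5 sites were repaired through RefSeq. The counting of calls was tested on simulated data for this comparison, over 1544 sites with 200 lowered: 75.6% of falls of 1.5 and 88.9% of falls of 3 (log2) were recovered, and 21.0 unchanged sites were called lower on average. The simulated libraries held counting error only, with no variation between libraries or cell lines. Those 21.0 sites are therefore not a rate of false calls for the real pair.

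The sites, gene lists and naming rule were chosen with earlier results of these data known. Named sites are the 15 largest falls and 12 largest rises with 10 added, the 10 with the highest binding, the 8 with the highest signal, genes with 4 or more sites, list members, and genes with 3 or more sites all lower or all higher. Names outside this rule (Tm6sf1, Slc31a2, Leo1, Ankrd40, Cst3 and sites shared with the knockout) were chosen after their values were seen. The alternatives were other amounts added before the logarithm, a minimum level of 5, centring on sites with H3K4me3 above H3K4me1, a threshold of 2, other sets of binding runs and a tag minimum. A few genes of the lists are not reported here by name, and the counts over lists include them.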

Additional observations from a re-analysis of the deposited data

How the results depend on the processing

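Of 94 values recomputed under alternatives, 73 stayed within the spread set for them, 19 moved, 1 went to 0 and 1 turned sign. With 10 added before the logarithm the median of all sites was -0.16 (-0.23 as reported), 181 sites were lower and 34 higher, the strongest minus weakest binding group gave -0.41 (-0.50 as reported), genic sites -0.22, sites at 30 to 100 kb -0.16, 3 genes had every site lower, and 20 list sites were lower or higher (32 as reported). Keeping the 1054 sites with a level of 5 or more left 165 lower and 36 higher, -0.73 between binding groups and 2 genes. A threshold of 2 left 104 lower and 14 higher. Centring on sites with H3K4me3 above H3K4me1, which shifts every difference by 0.09, gave -0.14 for all sites, -0.24 for genic, -0.115 for intergenic, -0.16 at 30 to 100 kb, 0.005 under 1 kb and, by construction, 0 for the centring class. Keeping the 1429 sites with over 3 tags in a library, an alternative chosen after seeing the data, gave -0.19 for that class. Binding from RevErbbeta runs alone was also added afterwards and moved neither binding result. No windows overlapped (the smallest gap between centres was 542 bp), so thinning neighbours removed no site. Its 13 values, counted among the 73 that stayed, therefore could not move. No paired analysis was possible because each group has 1 library, and for the same reason none could be left out. The tagged library, with 2.58 times fewer tags, limits what can be said of low sites: 172 sites held no tag in it and 86 none in control.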

Other observations

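Neighbouring sites were more alike than distant ones. Among 74 pairs of adjacent sites less than 5 kb apart, the 2 differences of a pair lay 0.52 apart (median), and Spearman's rho between them was 0.41. For 131 pairs at 5 to 20 kb the median gap was 0.65 and rho 0.18, for 106 pairs at 20 to 50 kb 0.74 and 0.16, and for 1213 pairs farther apart 0.80 and -0.02. Of 34 close pairs with a lower site, both sites were lower in 11, against 39 of 425 in the widest group. All pairs come from the same 2 libraries, and sites near each other also share gene and often class.

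The sites with the most 5'GRO-seq signal of all were nearly equal in the 2 libraries. Atf3, a stress-induced transcription factor, had 11.45 in control and 11.66 in tagged cells at its start. Sdc4, a heparan sulfate proteoglycan of the cell surface, had 11.16 and 11.35, and Mapk6, an atypical MAP kinase, 10.69 and 10.73. All 8 such sites differed by less than 0.25 in either direction. Falls at high signal did occur, and in the highest of the 5 level groups 8 of 309 sites were lower and 4 higher. That group was ranked by the mean of both libraries, while the sites that follow are named by control level alone. Besides the Hmga1 site and the Tbxas1 sites at 8.35 and 8.08 given above, Gm14005 was lower from a high control level. Its site 610 bp downstream of the start had 8.16 and 6.06 from about 533 and 47 tags, while its start site had 7.79 and 7.09.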
